A study of Homo sapiens with 4 samples.

Results

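Receptors for growth factors and neurotrophins, 9 in number, were followed in NGP, an established human neuroblastoma line with amplified MYCN. The members were chosen by gene symbol, as the rows of the deposited count table whose Ensembl identifiers map to ALK, RET, NTRK2, NTRK3, NGFR, KIT, IGF1R, ERBB2 and ERBB3. All 9 had a row among the 25693 human genes of the table. RNA of single cells was captured on the ddSeq droplet device and read from the 3' end of transcripts, after the cells had been synchronised by serum starvation. One group had then been treated with Nutlin-3, which keeps MDM2 from binding p53, and the control group with the solvent ethanol, each for 24 h. Each treatment had 2 libraries, with ERCC spike-in RNA diluted 1000-fold in the first and 10000-fold in the second. NGP is 1 cell line, and both groups share the starvation.

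ALK, RET, NTRK2, NTRK3, KIT, IGF1R, ERBB2 and ERBB3 belong to the receptor tyrosine kinases, membrane proteins that pair up when a ligand binds and pass the signal to the RAS-ERK and PI3K-AKT pathways. NGFR, the p75 neurotrophin receptor, has a death domain in place of a kinase and binds all the neurotrophins. In neuroblastoma, a tumour of the sympathetic lineage, ALK is the kinase most often activated by mutation, RET carries GDNF-family signals of the sympathetic lineage, and the balance of the NTRK receptors has long been linked to the course of the disease.

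The table held 500 columns, 250 for each treatment, with 1342134 human counts in the ethanol pool and 1301232 in the Nutlin-3 pool. Column names gave the treatment but not the library, so each treatment was 1 pool without a replicate and no test between treatments was possible. Of the 250 column names in a pool, 219 also occurred in the other pool, and 113 columns per pool held more than 4000 counts. Those 113 large columns carried the same names in both pools. In the large columns 92.2% of all nonzero entries were equal to 1, and 848 genes had a count in each of the 226. Sums over large columns could still exceed their number, as for MDM2 with 227 in ethanol and 377 in Nutlin-3. Columns are not treated as cells here. All 12 adrenergic markers listed for the line passed the filter on low counts, with 0 past a log2 ratio of 0.5 in either direction and a median of 0.20. The most abundant were CHGA, a granule protein, with 411 ethanol counts and 559 Nutlin-3 counts (log2 ratio 0.49, 0.30 to 0.68), and the transcription factor HAND2, with 342 and 309 (-0.10, -0.33 to 0.13). The treatment check CDKN1A, the p21 gene, had 70 ethanol counts against 188 Nutlin-3 counts.

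The promoters shown are those of the receptors with the highest levels, RET and IGF1R, and of the receptor with the lowest, NTRK3. Each runs from 250 bases before to 50 bases after a RefSeq start site (GRCh38.p14), 5′ to 3′ on the gene's strand. They lie at chr10:43076819-43077118 (plus strand), chr15:98648289-98648588 (plus) and chr15:88256690-88256989 (minus). Capitals mark the GC box GGGCGG on either strand (CCGCCC on the strand shown), overlapping copies included.
RET: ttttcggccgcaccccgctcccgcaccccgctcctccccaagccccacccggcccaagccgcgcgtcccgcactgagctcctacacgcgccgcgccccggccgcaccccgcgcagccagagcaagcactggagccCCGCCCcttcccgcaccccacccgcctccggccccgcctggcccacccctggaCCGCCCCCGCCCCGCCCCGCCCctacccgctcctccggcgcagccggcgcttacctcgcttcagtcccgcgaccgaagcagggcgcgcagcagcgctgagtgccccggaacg
IGF1R: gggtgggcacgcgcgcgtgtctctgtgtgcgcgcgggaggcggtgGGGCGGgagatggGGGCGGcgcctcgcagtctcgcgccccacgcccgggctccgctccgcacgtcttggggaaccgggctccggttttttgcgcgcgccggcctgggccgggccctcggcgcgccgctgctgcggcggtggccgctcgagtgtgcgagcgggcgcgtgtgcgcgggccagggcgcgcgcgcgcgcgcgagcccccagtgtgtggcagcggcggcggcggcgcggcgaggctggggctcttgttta
NTRK3: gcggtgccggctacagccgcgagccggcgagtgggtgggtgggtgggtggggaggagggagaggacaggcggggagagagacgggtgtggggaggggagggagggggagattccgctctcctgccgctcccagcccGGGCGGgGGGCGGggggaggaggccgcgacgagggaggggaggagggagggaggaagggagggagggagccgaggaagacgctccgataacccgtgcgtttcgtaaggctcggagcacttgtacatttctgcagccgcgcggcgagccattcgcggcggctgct

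The RET window held 5 GC boxes, and the IGF1R and NTRK3 windows 2 each. RefSeq windows were matched for 7 of the 9 receptors, NGFR and ERBB3 being the other two, and the window nearest to the annotated gene start was used. A GC box occurred in 6 of the 7, as it did in 45.0% of all 35116 windows of the same length. ERBB2 was the exception. CG dinucleotides numbered 55 in the IGF1R window, 41 in RET and 30 in NTRK3, against a median of 14 over all windows. The p53 decamer motif, searched on both strands, matched in 0 of the 7 windows and in 6.63% of all windows. The NTRK2 window held 10 CG dinucleotides, below the median of 14.

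Levels spread over a wide range in ethanol. IGF1R, the receptor for insulin-like growth factors, had 158 counts (95% Poisson interval 134 to 185) and RET, the GDNF-family receptor, had 139 (117 to 164). KIT, the receptor of stem cell factor, followed with 60 counts (45.8 to 77.2), ALK with 46 (33.7 to 61.4), ERBB2 with 30 (20.2 to 42.8) and NGFR with 22 (13.8 to 33.3). NTRK2, the BDNF receptor, had 11 counts (5.49 to 19.7), ERBB3, the neuregulin receptor whose own kinase is nearly inactive, had 8 (3.45 to 15.8), and NTRK3, the receptor of neurotrophin-3, had 3 (0.62 to 8.77). Only RET and KIT, among neighbours in this order, had intervals that did not overlap. These and all other intervals cover counting error only.

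NGFR took a higher place in Nutlin-3, and ERBB3 and NTRK2 exchanged theirs. IGF1R had 154 counts (131 to 180), RET 146 (123 to 172) and NGFR 67 (51.9 to 85.1), which moved it from place 6 to place 3. KIT had 43 counts (31.1 to 57.9), ALK 36 (25.2 to 49.8), ERBB2 28 (18.6 to 40.5), ERBB3 13 (6.92 to 22.2), NTRK2 4 (1.09 to 10.2) and NTRK3 3. RET and NGFR were the only neighbours with separate intervals. These are orders of raw counts, which a 3' method does not tie to transcript length. Per kilobase of annotated exon RET stood first in both pools, at 15.0 CPM (counts scaled to library size) per kb in ethanol and 16.2 in Nutlin-3. IGF1R and KIT came next in ethanol, at 8.44 and 8.03, then ALK at 4.65, NGFR at 3.95, ERBB2 at 2.16, ERBB3 at 0.66, NTRK2 at 0.40 and NTRK3 at 0.084. In Nutlin-3 NGFR came next after RET, at 12.4, followed by IGF1R at 8.49, KIT at 5.94, ALK at 3.76, ERBB2 at 2.09, ERBB3 at 1.11, NTRK2 at 0.15 and NTRK3 at 0.086. NGFR thus stood higher among the receptors in Nutlin-3 on both scales. The place of RET above IGF1R per kilobase rests on their exon lengths, 6.91 and 13.9 kb. Both had mostly 1 count in nearly every large column, so their counts may show little of a difference in level.

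**Figure D1:**
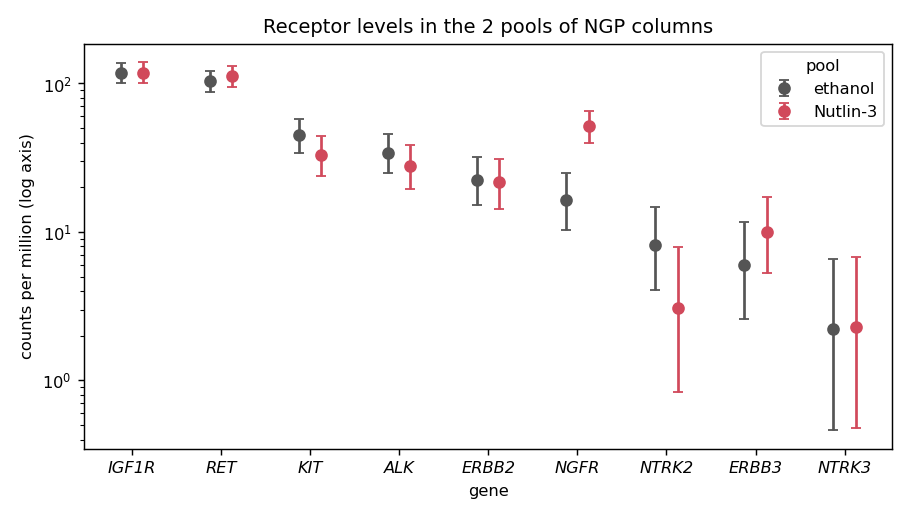
Level in CPM of the 9 receptors (log axis) in the ethanol pool (grey) and the Nutlin-3 pool (red), with 95% Poisson intervals. NGFR is the gene whose intervals do not overlap between the pools, at 16.4 and 51.5 CPM.

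NTRK2, ERBB3 and NTRK3 had totals within the range of those of markers of other cell types. Of 17 such markers fixed for Schwann, immune, endothelial, epithelial, liver, blood and muscle cells, 7 had a row, with totals over both pools of 1 to 37 counts. The epithelial marker EPCAM had 16 and 21 counts and the muscle marker ACTA1 10 and 11. The other 5 markers with a row had totals of 1 to 14. NTRK2 (11 and 4 counts) and ERBB3 (8 and 13) thus lay above those 5 and not above ACTA1, and NTRK3 (3 and 3) lay among them.

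NGFR differed most clearly between the treatments. Its sums were 22 counts in ethanol and 67 in Nutlin-3, or 16.4 CPM (10.3 to 24.8) and 51.5 CPM (39.9 to 65.4). The Nutlin-3 pool was thus 3.10-fold higher (95% counting interval 1.92 to 5.35), a log2 ratio of 1.63 (0.94 to 2.42). NGFR was the single receptor whose interval excluded 0. Among the 10376 genes with at least as many counts over both pools, 9 had a log2 ratio as high, NGFR included. With ERCC counts as the library size the log2 ratio was 1.16, where the median of all genes moved from 0.00 to -0.47. The ERCC sums, 2989 counts in ethanol and 4007 in Nutlin-3, depend on how many columns came from the library of each dilution, which is not known, and this holds for every value scaled to ERCC.

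NGFR counts came singly and from large columns alone. In ethanol 22 of the 113 large columns held 1 count each, or 19.5% (12.6 to 28.0, exact binomial). In Nutlin-3 it was 67 of 113, or 59.3% (49.6 to 68.4). No column held more than 1. The 137 small columns of each pool had 0 counts in both treatments. The 3 counts taken here as a floor would be 19.8 CPM in the ethanol small columns, within the pooled interval of 10.3 to 24.8. In Nutlin-3 they would be 21.3 CPM, below the pooled interval of 39.9 to 65.4. The small columns thus did not show the pooled Nutlin-3 level, and the reason was not tested. Small columns carried 11.3% of the human counts in ethanol and 10.8% in Nutlin-3. All NGFR counts lay in columns whose names occurred in both pools, and the 31 columns per pool with unshared names had 0. Of the 113 shared names of large columns, 11 had NGFR in both pools, where the product of the shares gives 13.0.

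Reading each large column as count or no count, a setting chosen after the data were seen, gave NGFR a log2 ratio of 2.09. It uses the negative natural log of the share of columns without a count, which was 0.217 in ethanol and 0.899 in Nutlin-3. After thinning of every column to 700 counts, NGFR was seen in 0 of 194 ethanol columns, which allows a share of up to 1.88%, and in 4 of 187 Nutlin-3 columns, or 2.14% (0.59 to 5.39). The difference was not detectable at that depth. The share of columns that free RNA gives is unknown, since the line offers no cell type without the gene.

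NGFR lies on chromosome 17 (49495293 to 49515017, plus strand, GENCODE 29 on GRCh38, as for all receptors below) and overlaps annotated genes on the opposite strand that had no row in the table used here. Whether the authors' counting used strand is not given in the sources used here. NGFR is also a gene of Schwann cells. Of the Schwann markers, SOX10 had no row, and S100B had 0 ethanol counts and 3 Nutlin-3 counts. Their part in the NGFR difference was not tested. More cells with a transcript and more RNA per cell in Nutlin-3 cannot be told apart in pools.

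**Figure D2:**
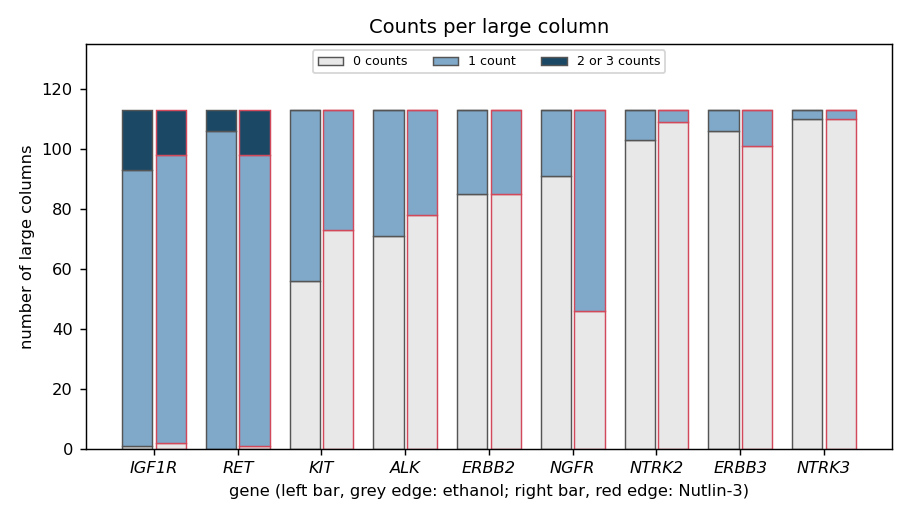
Number of large columns (113 per pool) with 0, 1, or 2 or 3 counts of each receptor, ethanol on the left and Nutlin-3 on the right. RET and IGF1R have a count in nearly all columns, mostly exactly 1, while NGFR goes from 22 columns with a count to 67.

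The neurotrophin receptor kinases NTRK2 and NTRK3 were scarce. NTRK2 had 11 ethanol counts and 4 Nutlin-3 counts, a log2 ratio of -1.31 whose interval ran from -3.52 to 0.34. It lies on chromosome 9 (84668551 to 85027070). NTRK3, on chromosome 15 (87859751 to 88256768), had 3 counts in each pool, all in large columns, and no fold is given at that level. Of the neurotrophins themselves, BDNF had 96 and 97 counts, and NTF3 and NTF4 had no row. SORT1, the sortilin co-receptor that binds NGFR, had 99 and 94 counts. The log2 ratio was 0.06 (-0.36 to 0.48) for BDNF and -0.03 (-0.45 to 0.39) for SORT1, and both intervals included 0.

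ALK and KIT had fewer counts in Nutlin-3, with intervals that included 0. ALK (chromosome 2, 29192774 to 29921566, minus strand) had 46 and 36 counts and a log2 ratio of -0.30 (-0.98 to 0.35). Large columns held 42 and 35 of these counts, and small columns 4 and 1. KIT (chromosome 4, 54657918 to 54740715) had 60 and 43 counts and a log2 ratio of -0.43 (-1.03 to 0.15). It was seen in 57 large columns in ethanol, or 50.4% (40.9 to 60.0), and in 40 in Nutlin-3, or 35.4% (26.6 to 45.0), and these intervals overlapped. Its ligand gene KITLG had 97 and 112 counts. Scaled to ERCC counts both receptors passed the fold of 0.5 used below, at -0.77 for ALK and -0.90 for KIT, as did 44.2% of all genes in that direction.

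RET and IGF1R were seen in nearly all large columns, mostly with a single count. RET (chromosome 10, 43077027 to 43130351) had exactly 1 count in 203 of the 226 large columns and never more than 3. Its totals were 139 and 146, a log2 ratio of 0.12 (-0.23 to 0.46). IGF1R (chromosome 15, 98648539 to 98964530) had exactly 1 count in 188 of 226, totals of 158 and 154, and a log2 ratio of 0.01 (-0.32 to 0.34). Entries of mostly 1 in nearly every large column are spread less than the Poisson counts that the intervals assume. A difference in level may therefore show little in the sums and ratios of RET and IGF1R, which was not tested. Counts in the small columns, where no entry exceeded 1, were 19 and 17 for RET and 25 and 27 for IGF1R, with log2 ratios of -0.02 and 0.24. Under ERCC scaling the sign of both turned, to -0.35 and -0.46. In the columns with unshared names RET had 4 and 1 counts and IGF1R 3 and 5.

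ERBB2 and ERBB3, which signal as a pair, were low. ERBB2 (chromosome 17, 39687914 to 39730426) had 30 and 28 counts, a log2 ratio of -0.05 (-0.85 to 0.74), and was seen in 28 large columns of each pool. It overlaps MIEN1 on the opposite strand, which had 152 and 155 counts, and PGAP3, with 46 and 58, so without strand its reads are uncertain. ERBB3 (chromosome 12, 56076799 to 56103505) had 8 and 13 counts and a log2 ratio of 0.71 (-0.63 to 2.22). The value for ERBB3 rests on 21 counts in all, and under ERCC scaling it was 0.24.

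**Figure D3:**
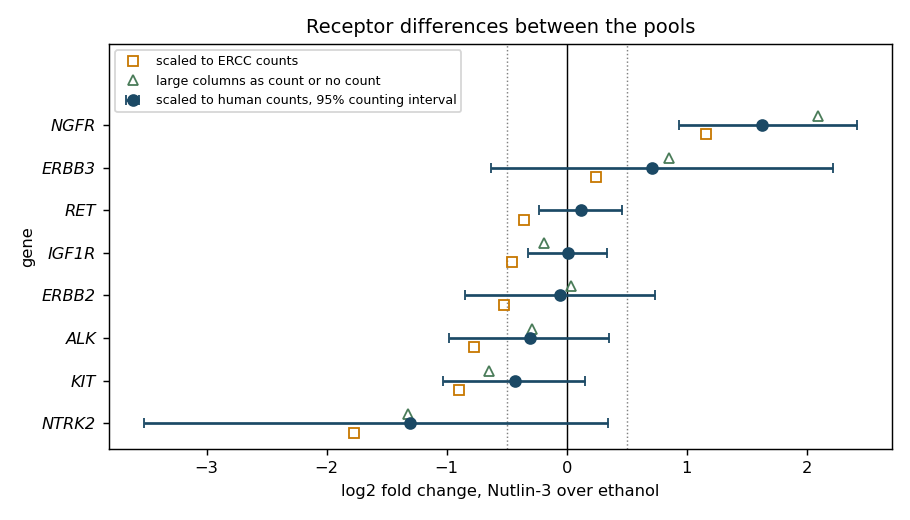
Log2 ratio of the pools (Nutlin-3 to ethanol) for the 8 receptors with more than 3 counts in a pool. Dots with bars are scaled to human counts with 95% counting intervals, squares are scaled to ERCC counts, triangles read large columns as count or no count (not defined for RET), and dotted lines mark 0.5. NGFR lies above 0.5 under all 3 readings.

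With 1 pool per treatment a gene was called when its log2 ratio reached 0.5 in size. Of the 9 receptors 8 passed the filter on low counts, NTRK2 through its ethanol count and ERBB3 through its Nutlin-3 count. Called higher were 2 of the 8 (NGFR and ERBB3), against 9.47% of the 14830 genes that passed, and called lower was 1 (NTRK2), against 7.5%. The calls of ERBB3 and NTRK2 follow from the pool that let them pass, and among the 6 receptors that passed in both pools 1 was called higher (NGFR) and 0 lower. The shares of all genes include genes that passed in 1 pool alone. No share was computed for genes that passed in both, so the calls among the 6 have no matching background. The median of the 8 was -0.02 and that of all genes 0.00. ERCC scaling changed the split to 1 higher (NGFR) and 4 lower (ALK, NTRK2, KIT and ERBB2), and over all genes to 3.48% higher and 44.2% lower. Without the small columns NTRK2 missed the filter and no receptor was called lower, while its log2 ratio was -1.18.

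**Figure D4:**
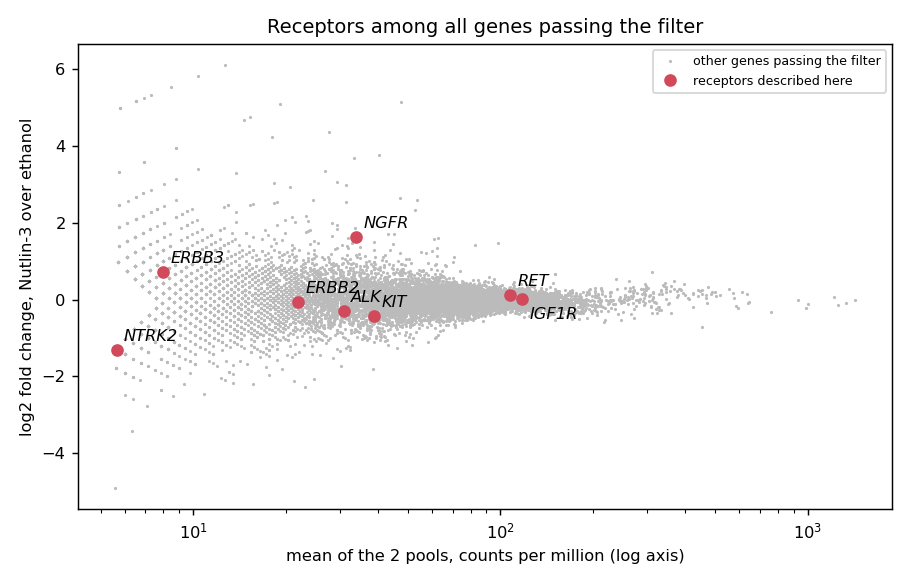
Log2 ratio of the pools (Nutlin-3 to ethanol) against the mean level in CPM (log axis) for the 14830 genes that passed the filter (grey), with the 8 receptors that passed in red. The spread of all genes widens towards low levels, where ERBB3 and NTRK2 lie, and NGFR stands above most genes of its level.

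Genes around the receptors were followed in lists written from general knowledge. List medians are scaled to human counts, and under ERCC scaling all of them lay between -0.51 and -0.39. Of all genes that passed the filter, 9.47% were called higher and 7.5% lower, to be read beside the calls of each list. Values are counts in ethanol and then in Nutlin-3. Of 11 ligand genes that passed the filter, 1 was called higher and 0 lower, with a median log2 ratio of 0.05. The most abundant were IGF2, the IGF1R ligand, with 171 and 156, and MDK, the growth factor midkine, with 129 and 149. The gene called higher was GDNF, the RET ligand, with 28 and 63 counts, a log2 ratio of 1.20 (0.55 to 1.91). Named here after its value was seen, it was at 0.73 under ERCC scaling. The GDNF-family co-receptor GFRA2 had 103 and 110 counts.

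Of 9 co-receptors and partners 1 was called higher and 0 lower (median -0.05). BEX3, a protein that binds NGFR, had 226 and 212 counts, and KIDINS220, a scaffold of neurotrophin receptors, had 167 and 155. The gene called higher was LINGO1, a partner of NGFR in the Nogo receptor complex, with 10 and 42 counts and a log2 ratio of 2.06 (1.10 to 3.28). LINGO1 passed the filter through its Nutlin-3 count alone, and it too was named after its value was seen.

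Among 22 adaptors 1 was called higher and 1 lower (median -0.02). FRS2 had 206 and 211 counts and DOK4 163 and 179. SHC2 was called higher, with 8 and 21 counts and a log2 ratio of 1.38 (0.21 to 2.82). It passed the filter through its Nutlin-3 count alone. IRS1, which links IGF1R to PI3K, was lower, with 43 and 16 counts and a log2 ratio of -1.35 (-2.31 to -0.52), while IRS2 had 142 and 131. SHC2, IRS1 and IRS2 were named after their values were seen.

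The 10 RAS-ERK kinases had 0 genes called in either direction (median -0.0043), and MAP2K2 among them had 151 and 146 counts. All 10 had a mean above 50 CPM, where few of all genes are called (central 95% of log2 ratios -0.37 to 0.37). Of 10 PI3K-AKT genes 1 was called higher and 0 lower (median -0.04). The gene called higher was PIK3R2, a regulatory subunit of PI3K, with 57 and 82 counts and a log2 ratio of 0.57 (0.07 to 1.08). Of 11 genes of ERK feedback and output, 1 was higher and 1 lower (median 0.08). DUSP4 had 158 and 166 counts and SPRED2 127 and 138. SPRED3 was higher with 38 and 62, and SPRY1 lower with 73 and 49, both named after their values were seen. Under ERCC scaling PIK3R2 was at 0.10 and SPRED3 at 0.28, both below the fold of 0.5.

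The rest of the receptor tyrosine kinase family was looked at in the same way, with the genes called named after their values were seen. Of 50 further family members 41 had a row and 27 had enough counts to be kept. They had a median log2 ratio of 0.03, with 6 called higher and 1 lower, beside 9.47% and 7.5% of all genes. EPHA2 and EPHB6, both called higher, passed the filter through their Nutlin-3 counts alone. The most abundant were DDR2, a collagen receptor, with 128 counts in ethanol and 126 in Nutlin-3, and RYK, a Wnt receptor, with 125 and 119.

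EPHA2, an ephrin receptor, had the highest ratio. Its counts were 1 in ethanol and 39 in Nutlin-3. Scaled to library size without the added 0.5 counts used for the other ratios, this is a ratio of 40.3 (counting interval 6.81 to 1631). DDR1, the other collagen receptor of the family, had 24 and 60 counts, a log2 ratio of 1.35 (0.66 to 2.12). INSRR, an orphan relative of the insulin and IGF1 receptors, had 13 and 38 counts, a value of 1.56 (0.65 to 2.63). EPHA8 had 20 and 40 counts, EPHB6 5 and 10, and LTK, the closest relative of ALK, 38 and 59, with a log2 ratio of 0.67 (0.07 to 1.31). FGFR2 was lower, with 24 and 15 counts (-0.61, -1.67 to 0.36). Under ERCC scaling LTK was at 0.21, and the other 5 stayed above 0.5. LTK and ALK pointed in opposite directions when scaled to human counts, but the difference between the 2 genes was not tested.

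**Figure D5:**
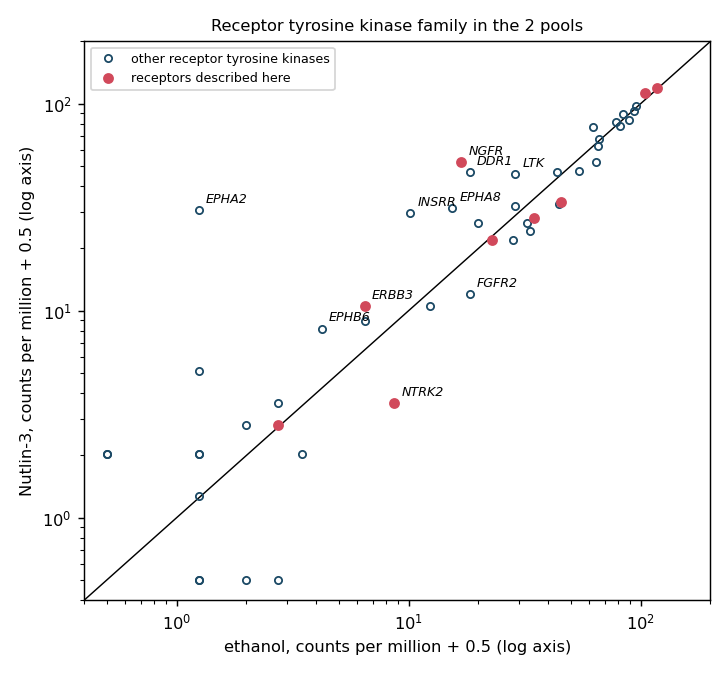
Level in the Nutlin-3 pool against the level in the ethanol pool, both as CPM plus 0.5 on log axes, for the 9 receptors (red) and the 41 other receptor tyrosine kinases with a row (open circles), with the line of equal levels. NGFR, EPHA2, DDR1 and INSRR lie well above the line, and RET and IGF1R on it at the upper end.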

How the data were processed

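The authors deposited counts, all whole numbers, for each gene in each column, from ddSeq libraries made with the SureCell WTA 3' kit on polyadenylated RNA, per the labels' protocols. Not given in the sources used here were the aligner, the handling of barcodes and molecular tags, the build, the annotation, the cell filter and the treatment of doublets. No doublet caller was run. Columns named treated were taken as Nutlin-3 and columns named untreated as ethanol, and counts were summed per treatment without the 62 ERCC species. Column totals ran from 306 to 13502 in ethanol and from 253 to 13501 in Nutlin-3. Scaling was TMM of edgeR 4.0.16 in R 4.3.3, with its filter at a minimum of 10 counts. Fold changes add 0.5 counts to each sum, their 95% intervals are exact binomial, and intervals of sums exact Poisson. Since the values are 1 pool per treatment, the edgeR test planned for tied libraries was not run. Symbols matched 25422 genes. Fold functions were tested on simulated data. Python was 3.11.15 with scipy 1.17.1.

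The receptors and gene lists were chosen with earlier results of these data known. Named were all receptors, CDKN1A and MDM2, the 2 genes of each list with the most counts, and list genes past the fold of 0.5 whose mean level reached 50 CPM. Some genes of the lists are not reported here. MDM2 had 315 ethanol counts and 504 Nutlin-3 counts. Of the mesenchymal markers 7 of 9 had a row, with 635 and 643 counts in all, and the 12 adrenergic markers had 2523 and 2787. Alternatives were DESeq2 1.42.0 size factors, total and ERCC scaling, no filter, another pseudocount and subsets of columns.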

Additional observations from a re-analysis of the deposited data

How the results depend on the processing

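No paired analysis was possible because no column can be tied to its library, so that each treatment is a single pool. Leaving out each library and a replicate block were not run for the same reason. Of 68 values of single receptors under the alternatives, 63 stayed within the first counting interval, 5 left it and 0 called values changed sign. Those 5 were RET and IGF1R under ERCC scaling and in columns with unshared names (-1.74 and 0.50, from up to 5 counts), and ALK in small columns (-1.45). DESeq2 size factors, total scaling, no filter and another pseudocount reuse the same sums at nearly the same scale. Their values could hardly leave the interval and tell little. Receptors with 3 or fewer counts in both pools of a subset gave no value, as NGFR in small columns. ERCC scaling left 1 receptor called higher and 4 lower, and the receptors' median moved to -0.49. It subtracts 1 constant from every gene and gave medians of -0.51 for co-receptors, -0.49 for adaptors, -0.47 for RAS-ERK kinases, -0.51 for PI3K-AKT genes and -0.44 for other receptor tyrosine kinases. Large columns alone left 0 receptors called lower. Small columns alone gave -0.18 for RAS-ERK kinases, -0.37 for PI3K-AKT genes and -0.71 for other receptor tyrosine kinases. There, and in columns with unshared names, under 3 receptors passed the filter, so no median is given.

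In ethanol 6 receptors changed place in small columns and 6 per kilobase of exon. In Nutlin-3 the numbers were 2 in large columns, 6 in small columns and 3 per kilobase. At 700 counts per column 2.12% of receptor and column pairs held a count in ethanol and 2.44% in Nutlin-3. At 350 counts the shares were 1.29% and 0.914%, and without thinning 19.96% and 20.5%. The cause was not tested.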

Other observations

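Large columns carried a median of 3 of the 9 receptors in ethanol and 4 in Nutlin-3, with a range of 1 to 6 in both. In Nutlin-3, NGFR and KIT were seen together in 23 large columns, where the product of their shares gives 23.7, and NGFR and ALK in 22, where it gives 20.8. Pairs farther from the product, picked after their values were seen, were ALK and KIT in Nutlin-3, together in 19 columns against 12.4. In ethanol NTRK2 and KIT were together in 9 columns against 5.04, KIT and ERBB3 in 7 against 3.53, and NGFR and ERBB2 in 2 against 5.45. None of these was tested. ERBB2 was seen under the same name in both pools 11 times, where the product of the shares gives 6.94.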
